A study of Mus musculus with 90 samples.

Results

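Late differentiation was examined in cultured mouse myoblasts that lack functional MyoD. Cells after 7 days in differentiation medium were compared with cells after 3 and 4 days. Arrays whose titles gave 7d, 3d or 4d were taken, which made 27 of the 90 arrays of the study. They came from 9 RNA samples, each read on the 3 chips MG_U74Av2, MG_U74Bv2 and MG_U74Cv2, so that each chip held 3 arrays of 7d against 6 arrays of 3d and 4d. Each time was sampled once in each of 3 cultures, which the titles call 1999, P6 and P10, and culture was a block in the comparison. No measured value entered the choice of arrays.

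All samples were primary skeletal myoblasts of MyoD-/- mice, expanded with bFGF and fetal bovine serum in Ham's F10 and then moved to DMEM with horse serum. The knockout was shared by every group, so no comparison with wild-type cells was possible. The labels do not say what the culture names stand for or how many animals gave the cells. The values are deposited MAS5 signals, a linear intensity per probe set.

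MyoD (gene *Myod1*) and its relatives *Myf5*, *Myog* and *Myf6* are transcription factors that commit cells to skeletal muscle and switch on its contractile genes. Myoblasts leave the cell cycle, align and fuse into myotubes. The myotubes first assemble sarcomeres from embryonic and neonatal protein isoforms and later take up adult isoforms, a calcium store with its release channel, and the enzymes of muscle energy supply. Loss of MyoD is known to delay or weaken differentiation of cultured myoblasts.

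Culture 1999 stood apart from the others before any comparison of times. On the first principal component, which held 62.2%, 44.9% and 27.8% of the variance on the 3 chips in that order, the 1999 arrays lay between -46.8 and -20.5 on MG_U74Av2, while P6 and P10 lay between 6.7 and 31.8. The mean signal of the arrays differed little within a chip (2110 to 2307 on the A chip, 1754 to 1815 on B, 2090 to 2185 on C). The instrument records of 1999 at 4d and 7d came from another scanner type than those of the other dated arrays and left the sample description empty, so that the identity of these arrays rests on their titles. They shared 1 scan session per chip, whereas 1999 at 3d was scanned in an earlier one. All 3 P6 times and P10 at 7d shared a session, and P10 at 3d and 4d came from an earlier one or, on MG_U74Cv2, had no date. Changes within P6 and from 4d to 7d within 1999 were therefore made within a session, and for P10 the session cannot be told apart from the time. The *Myod1* probe set read between 3305 and 5534 on these 9 arrays. Its position relative to the deleted part of the gene was not analysed here, so it checks no genotype.

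**Figure D1:**
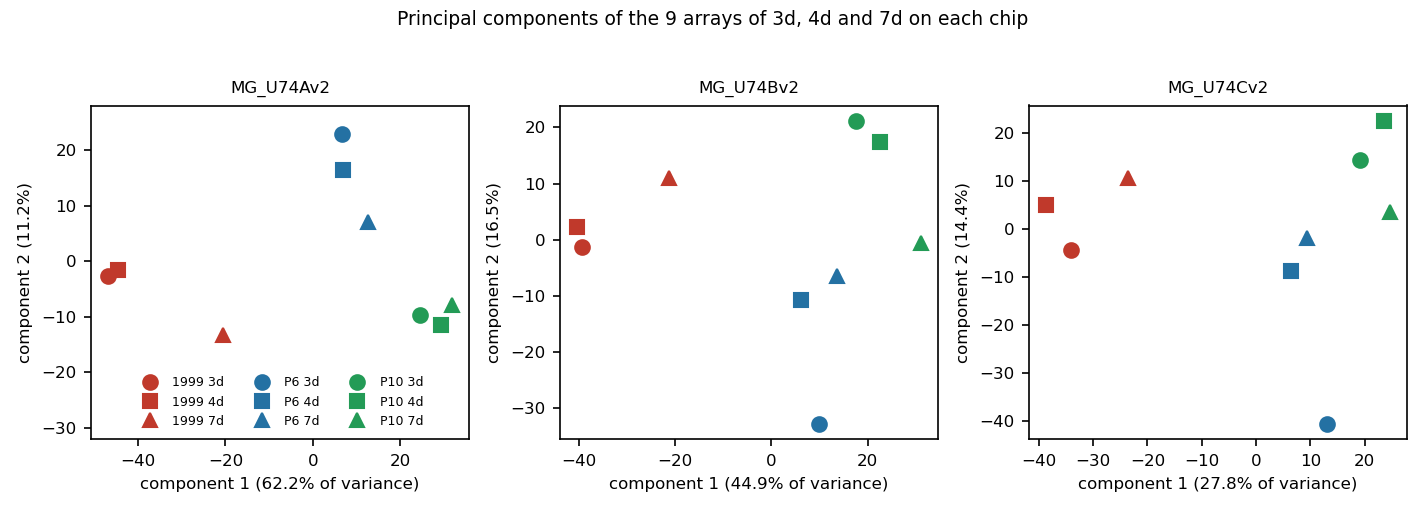
First and second principal components of log2 signal for the 9 arrays of 3d, 4d and 7d on each chip, with culture by colour and time by symbol. The 1999 arrays lie to the left of all P6 and P10 arrays on every chip, and the 1999 array of 7d lies closer to the others than those of 3d and 4d.

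Few single probe sets passed the test of 7d against 3d and 4d over the 3 cultures, and the named genes nearest to passing were *Itga9* and *Myl2* on the higher side and *Cd44* and *Glipr2* on the lower side. Of 20389 probe sets tested, 1 was higher and 1 was lower at an adjusted p under 0.05 (limma, Benjamini-Hochberg over all 3 chips), which was 0.0049% of those tested in each direction and 0.00981% together. At an unadjusted p under 0.05 there were 749 higher and 990 lower probe sets, 3.67% and 4.86% of those tested and 8.53% together. Testing required a signal over the chip median on 3 or more of the 9 arrays, which favours the lower side. A probe set bright only at 7d had to exceed the median on all 3 arrays of 7d, while one bright only before had more arrays to qualify through. The numbers of higher and lower probe sets can therefore not be weighed against each other. Log2 values are of the signal plus an offset, the 25th percentile of the chip, so changes of dim probe sets are understated. With 3 arrays of 7d, and samples of 3d and 4d taken from the same cultures, p values measure the spread left after culture levels are removed. That spread holds differences of 3d from 4d within a culture and differences among cultures in the change. Whether the samples were separate differentiations is not stated.

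Neither probe set that passed carries a gene symbol in the chip annotation. Probe set 99481_at on MG_U74Av2 read 44.5, 44.1 and 270 at 3d, 4d and 7d in 1999, 64.4, 47.2 and 512 in P6, and 630, 804 and 2022 in P10. It was higher at 7d than at both earlier times in all 3 cultures, by 1.49 ± 0.14 (log2, SE) with an adjusted p of 0.0467. Probe set 102080_at on the same chip read 351, 361 and 84.1 in 1999, 643, 425 and 102 in P6, and 579, 763 and 148 in P10. It was lower at 7d in every culture, with a log2 change of -1.44 ± 0.15 and the same adjusted p of 0.0467. It exceeded the chip median of 527.3 only on arrays of 3d and 4d, so it entered the test through the times at which it was higher. Its mean signal at 7d, 111.4, lay under the chip offset of 119.8, so the size of its log2 change depends on the offset. Under 17 other settings the first kept its direction with adjusted p from 0.0604 to 1 and the second with adjusted p from 0.0153 to 0.772. A further setting, a filter on the mean signal, removed both, so they were not tested there.

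The 10 genes with the smallest p on the higher side did not pass. They were picked by the p of this comparison, so their direction in the cultures is a description. *Myl2*, the slow regulatory myosin light chain, read 28.6, 50.6 and 1329 at 3d, 4d and 7d in 1999, 363, 611 and 2084 in P6 and 1706, 3122 and 7297 in P10. Its highest value in each culture was at 7d, but the 1999 and P6 arrays of 7d overlapped the P10 arrays of 3d and 4d. The log2 change was 2.23 ± 0.30 with an adjusted p of 0.211, and 1.51 with an adjusted p of 0.0364 (limma) with the offset at the chip median. *Casq1*, the calcium-binding protein of the sarcoplasmic reticulum in fast fibres, read 781, 923 and 1769 in 1999, 2265, 2929 and 5953 in P6 and 3323, 6538 and 11059 in P10. Its change of 1.12 ± 0.20 was made up of 0.96, 1.17 and 1.22 in 1999, P6 and P10, while a second *Casq1* probe set gave 0.00.

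*Stim1*, the sensor that opens plasma membrane calcium channels when the store is empty, read 931, 869 and 1483 in 1999, 1433, 1270 and 2588 in P6 and 3115, 3160 and 4406 in P10. The log2 change was 0.67 ± 0.12, with 3d and 4d close to each other in each culture, whereas its other probe set gave 0.09. *Camk2b*, a calcium and calmodulin-dependent kinase, read 73.5, 113 and 826 in 1999, 679, 727 and 1623 in P6 and 542, 1168 and 2131 in P10. *Xirp2*, an actin-binding protein of the cell attachments of muscle, read 535, 729 and 2662 in 1999, 1666, 1658 and 3220 in P6 and 2564, 4976 and 9342 in P10. Its log2 change was 1.29 ± 0.23, and another *Xirp2* probe set gave 2.14.

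Outside the contractile machinery, *Itga9*, an integrin alpha chain, read 110, 121 and 675 in 1999, 646, 786 and 2312 in P6 and 1554, 1859 and 3556 in P10. Its log2 change of 1.21 ± 0.15 had an adjusted p of 0.13, the smallest among the genes named on this side. *Col8a1*, a short-chain collagen, did not overlap between groups, with 13194, 15276 and 16303 at 7d in 1999, P6 and P10 against 5940 to 10117 at 3d and 4d. *Dcn*, the matrix proteoglycan decorin, and *Hipk2*, a nuclear kinase, had log2 changes of 1.09 ± 0.20 and 1.60 ± 0.28, while other *Hipk2* probe sets gave 0.56 and 0.85. *Atp13a3*, a P5-type ATPase, did not overlap either, at 2320, 2704 and 2702 at 7d against 1299 to 2019 before. Its log2 change was 0.61 ± 0.11, and its other probe set gave 0.30. For *Camk2b*, *Xirp2*, *Col8a1*, *Dcn*, *Hipk2*, *Stim1*, *Casq1* and *Atp13a3* the adjusted p was 0.278.

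On the lower side *Cd44*, the cell surface receptor for hyaluronan, read 24723, 27174 and 10185 at 3d, 4d and 7d in 1999, 11078, 13292 and 6944 in P6 and 10186, 11235 and 4776 in P10. The 3 arrays of 7d were all below the 6 earlier ones, but 1999 at 7d lay right next to P10 at 3d. The log2 change was -1.08 ± 0.16 with an adjusted p of 0.211, and other *Cd44* probe sets gave -0.89 and -0.65. *Glipr2*, a Golgi membrane-associated protein, read 3445, 4890 and 1288 in 1999, 1368, 1698 and 780 in P6 and 622, 495 and 191 in P10, a change of -1.19 ± 0.17. It was highest in 1999 at every time and lowest in P10, so that the groups overlapped although every culture ended lower.

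*Lrrc17*, a secreted leucine-rich repeat protein, also lay below all earlier arrays, with 5218, 4753 and 2951 at 7d in 1999, P6 and P10 against 5426 to 11412 before. *Slc29a1*, a nucleoside transporter, read 14082, 14114 and 9141 at 7d and 12587 to 31420 before, which overlapped through P10. *Plagl1*, an imprinted zinc finger gene, read 2466, 2289 and 1346 in 1999, 1200, 1233 and 471 in P6 and 511, 827 and 164 in P10, with other probe sets from -0.61 to -0.32. *St8sia5*, a sialyltransferase, *Cpsf2*, a subunit of the mRNA cleavage complex, *Tbl1x*, a corepressor subunit, *BC051226* and *Tirap*, an adaptor of Toll-like receptors, had log2 changes of -0.93, -0.69, -0.70, -0.83 and -1.27. Second probe sets of *Cpsf2* and *Tirap* gave only -0.05 and -0.17, and other *Tbl1x* probe sets gave -0.56 and -0.24. Adjusted p lay between 0.211 and 0.278 for these 10 genes. Among them *St8sia5*, *Cpsf2*, *BC051226* and *Tirap* exceeded the chip median on arrays of 3d and 4d only, and so entered the test through those times.

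**Figure D2:**
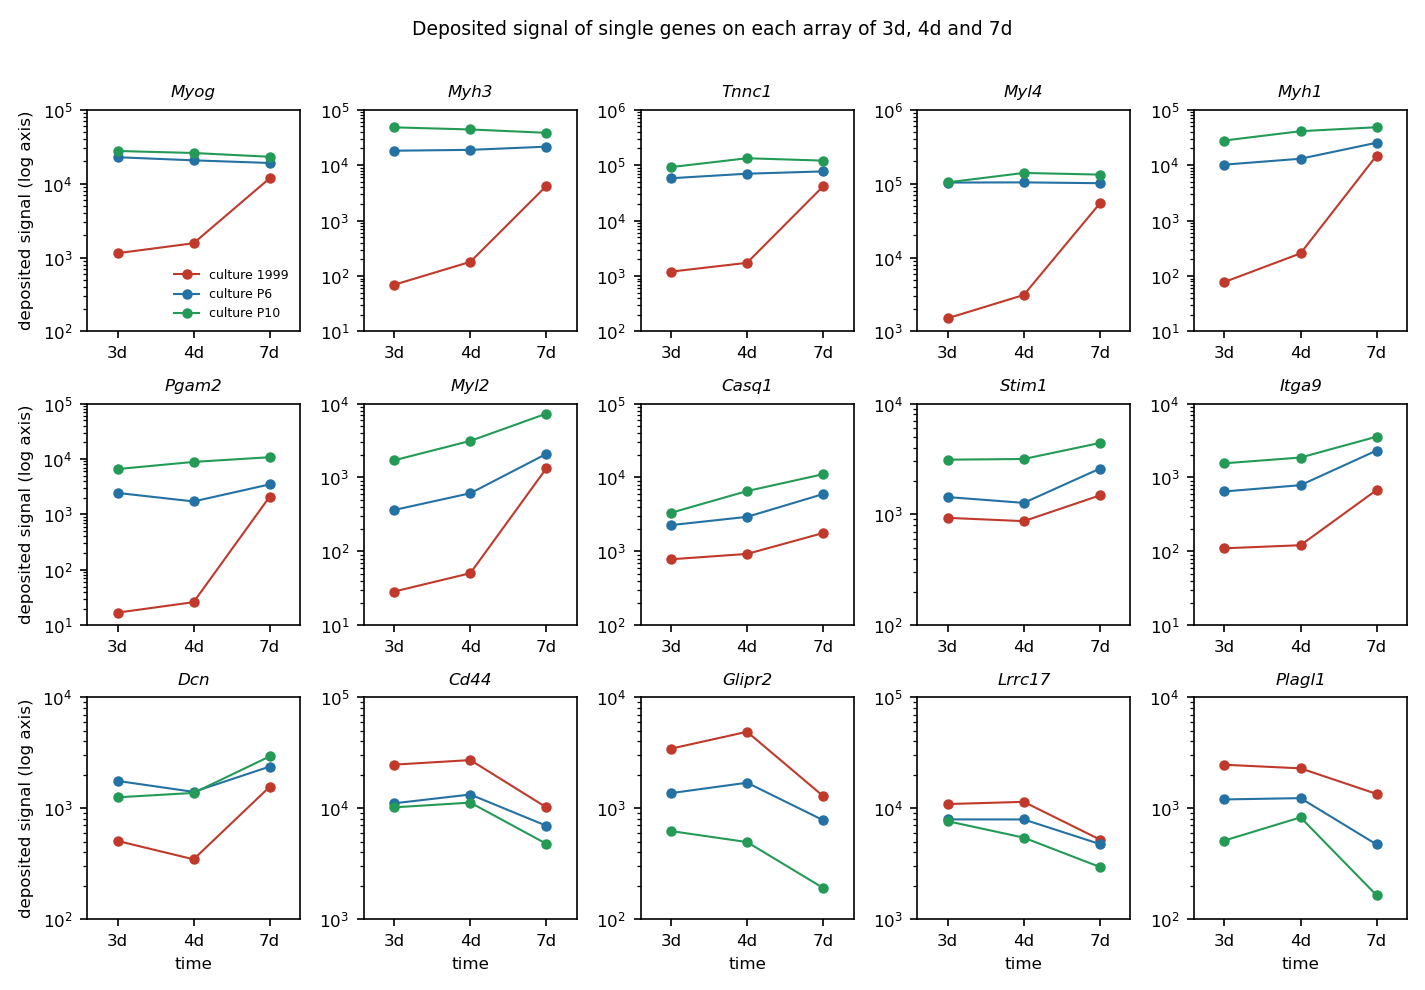
Deposited signal (log axis) of 15 genes on each array of 3d, 4d and 7d, 1 line per culture. The upper row and *Pgam2* show genes that climbed in 1999 and were already high in P6 and P10. *Myl2*, *Casq1*, *Stim1*, *Itga9* and *Dcn* were highest at 7d in each culture, by steps of unlike evenness. The log2 changes in 1999, P6 and P10 were 3.19, 1.89 and 1.61 for *Myl2*, and 0.96, 1.17 and 1.22 for *Casq1*. *Cd44*, *Glipr2*, *Lrrc17* and *Plagl1* end lowest at 7d in each culture.

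Among lists of muscle genes no member passed the test over the 3 cultures, and the medians differed by list and by culture. A list was described by 1 probe set per gene, by how many members lay above both earlier times in all 3 cultures, which 5.01% of all probe sets did, and by its median change, which was -0.01 over all probe sets. Of the 9 adult slow contractile genes tested 6 were above in all cultures, as were 6 of 10 adult fast genes, 8 of 30 genes of the Z-disc, M-band and scaffold, and 3 of 10 embryonic and neonatal genes. None of the members of these lists lay below both earlier times in all cultures. Medians were 1.04 for slow, 1.28 for fast, 0.85 for scaffold and 1.26 for embryonic and neonatal genes. Without culture 1999 the medians were 0.34, 0.35, 0.15 and 0.10.

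In the slow list *Myh7*, the slow myosin heavy chain, read 82.6, 150 and 2342 in 1999, 5110, 8557 and 11702 in P6 and 16832, 19376 and 29939 in P10. The f suffix of this probe set marks probes shared within a gene family, and a second *Myh7* probe set gave -0.17 against its 1.64 ± 0.45. *Tpm3*, a slow tropomyosin, went the other way among cultures, with changes of 0.22 in 1999, 0.71 in P6 and 1.07 in P10. Of the scaffold genes *Nrap*, an actin-binding protein of assembling myofibrils, read 202, 179 and 863 in 1999, 1227, 1907 and 2798 in P6 and 2815, 3902 and 5004 in P10, and *Fhl1*, a LIM protein, read 809, 3388 and 10056 in 1999, 2795, 4821 and 14115 in P6 and 15601, 24486 and 41774 in P10. *Fhl1* was already higher at 4d than at 3d in each culture. *Hspb7*, a small heat shock protein of muscle, had a change of 0.83 ± 0.19. Adjusted p for *Myh7*, *Tpm3*, *Nrap*, *Fhl1* and *Hspb7* was 0.406, 0.398, 0.29, 0.323 and 0.303.

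Genes of excitation-contraction coupling and the calcium store were above both earlier times in all cultures for 9 of 21 members, with a median of 0.63 and of 0.31 without 1999. *Trdn*, which anchors calsequestrin at the release channel, read 3370, 4370 and 16903 in 1999, 12364, 14595 and 21704 in P6 and 19086, 23704 and 31194 in P10. *Ryr1*, the release channel itself, read 189, 228 and 2373 in 1999, 2162, 3044 and 3574 in P6 and 5346, 5004 and 6227 in P10. *Atp2a1*, the fast calcium pump, and *Hrc*, a calcium-binding protein of the store, had changes of 1.05 ± 0.35 and 0.81 ± 0.18. Each of these genes was highest at 7d in each culture, and adjusted p lay at 0.375 for *Trdn*, 0.501 for *Ryr1*, 0.486 for *Atp2a1* and 0.316 for *Hrc*.

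At the neuromuscular synapse 4 of 14 members were above in all cultures, with a median of 0.32 that was 0.28 without 1999. The delta subunit of the acetylcholine receptor, *Chrnd*, read 576, 502 and 1616 in 1999, 1758, 1922 and 2491 in P6 and 2731, 2831 and 5459 in P10, a change of 0.92 ± 0.17 with an adjusted p of 0.278. The alpha subunit *Chrna1* and the fetal gamma subunit *Chrng* had changes of 1.15 ± 0.30 and 0.72 ± 0.21. The adult epsilon subunit *Chrne* had -1.07, 0.10 and 0.61 in 1999, P6 and P10, with no common direction. *Ache*, acetylcholinesterase, was highest at 7d in each culture, at 191, 1078 and 1313 against 119 to 983 before.

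Of 24 genes of muscle energy supply 13 were above both earlier times in all cultures, with a median of 0.47 and of 0.27 without 1999. *Pfkm*, the muscle phosphofructokinase, read 2912, 2545 and 8320 in 1999, 8158, 10120 and 15115 in P6 and 20482, 19770 and 27726 in P10. *Pygm*, glycogen phosphorylase, and *Hk2*, hexokinase, had changes of 0.80 ± 0.17 and 0.75 ± 0.17, and adjusted p for *Pfkm*, *Pygm* and *Hk2* was 0.29, 0.29 and 0.31. Muscle creatine kinase, *Ckm*, had a change of -0.04 ± 0.14 on the probe set used and 0.32 to 0.55 on its other probe sets. The 38 genes of the mitochondrial respiratory chain had a median of 0.07, with 5 above in all cultures.

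Cytosolic ribosomal protein genes lay below both earlier times in all cultures for 11 of 27 members, against 5.68% of all probe sets, with a median of -0.24. Their medians by culture were -0.39, -0.19 and -0.21 in 1999, P6 and P10. *Rps7* and *Rps4x*, proteins of the small subunit, had changes of -0.36 ± 0.12 and -0.29 ± 0.11 with adjusted p of 0.463 and 0.518. In the G2 and M phase list 3 of 19 members were below in all cultures, among them *Plk1*, a mitotic kinase, at 1108, 1166 and 370 in 1999, 1032, 970 and 853 in P6 and 996, 905 and 844 in P10, all 3 arrays of 7d being below the 6 earlier ones. Its log2 change was -0.57 ± 0.21 with an adjusted p of 0.521. The median of the G2 and M phase list was -0.25, with -0.33, -0.01 and -0.28 in 1999, P6 and P10. S phase genes had a median of 0.00.

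Among matrix and signalling genes *Timp1*, an inhibitor of metalloproteinases, was lower at 7d in each culture, at 13746, 21326 and 12361 against 15363 to 45475 before, with a change of -0.66 ± 0.17. *Grem1*, an antagonist of bone morphogenetic proteins, and *Bmp4*, one of those proteins, had changes of -0.99 ± 0.24 and 0.96 ± 0.25. Adjusted p was 0.398, 0.364 and 0.393 for *Timp1*, *Grem1* and *Bmp4*. The 22 lysosomal genes had a median of 0.14 with 4 above in all cultures, one of them *Man2b1*, an alpha-mannosidase, with 0.53 ± 0.10. Lists for collagens, the insulin-like growth factor axis, protein turnover and the interferon response had medians of 0.08, -0.06, 0.09 and -0.05.

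**Figure D3:**
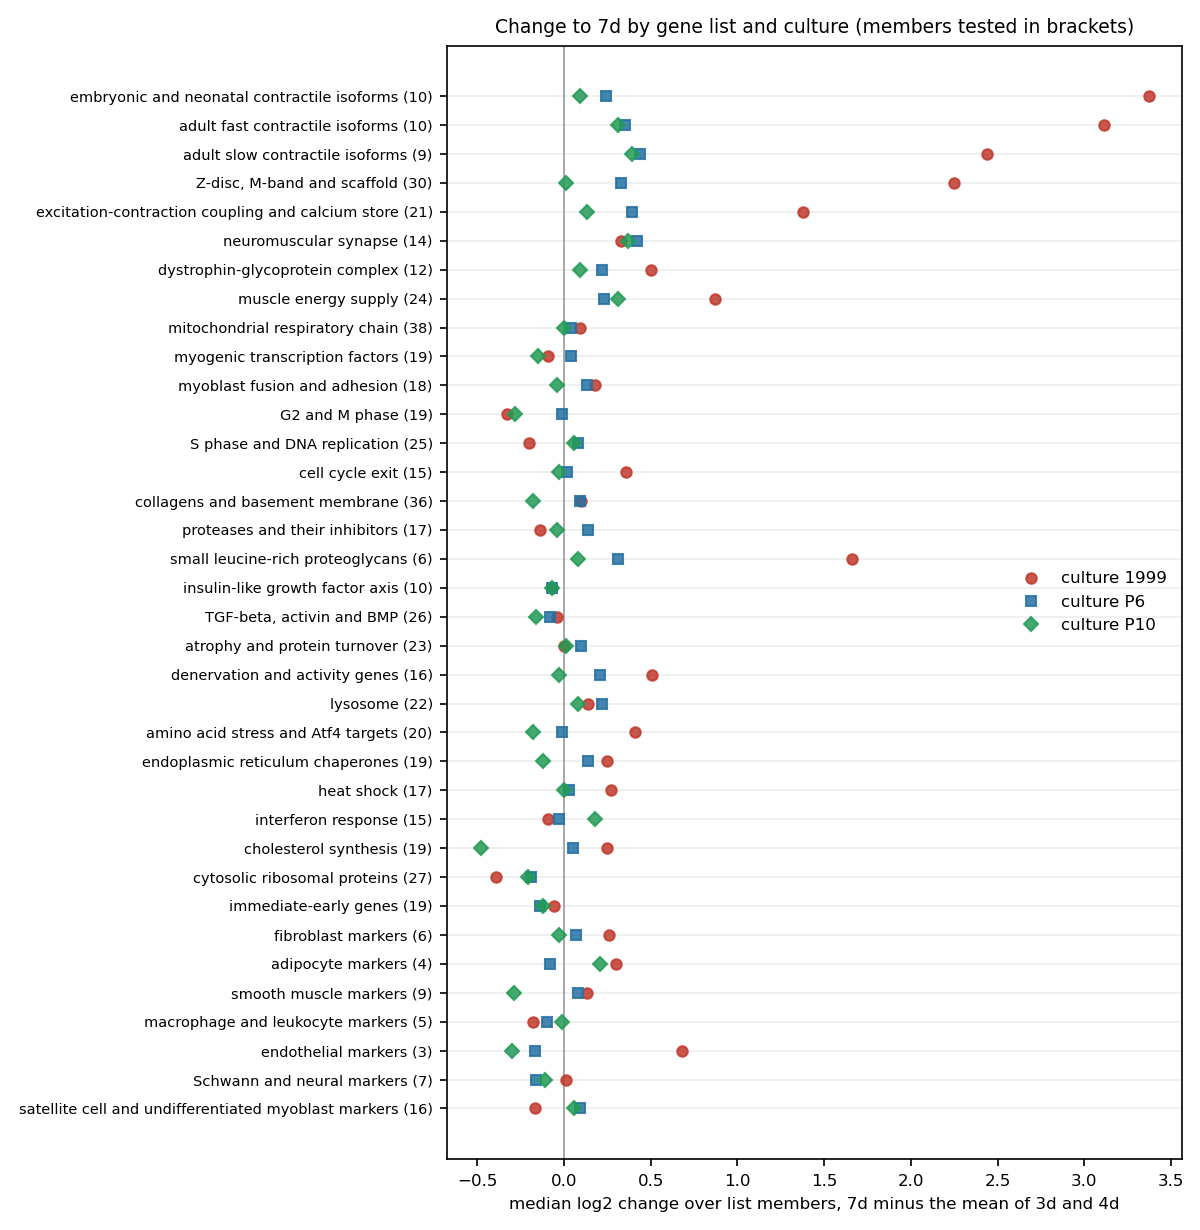
Median log2 change from the mean of 3d and 4d to 7d for each gene list, with 1 symbol per culture and the number of genes tested in brackets. The 1999 symbols of the sarcomere lists lie between 2.25 and 3.37, and those of P6 and P10 for the same lists lie between 0.01 and 0.44.

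The change to 7d was larger in 1999 than in P6 and P10 for genes of the sarcomere. The change in 1999 minus the mean change in P6 and P10 passed for 21 probe sets of 20 genes, 0.103% of those tested, at an adjusted p of 0.0422 for each (limma). All 21 were larger in 1999, and 0 were smaller. At an unadjusted p under 0.05, 798 were larger and 521 smaller, 3.91% and 2.56% of those tested and 6.47% together. By list, 6 of 10 embryonic and neonatal, 3 of 10 adult fast, 1 of 9 adult slow and 3 of 30 scaffold genes passed. The culture contrast itself was chosen with earlier results of these arrays known. Each culture had 1 array of 7d per chip, so the error of this test comes from the spread between 3d and 4d within cultures and assumes that 7d varies alike. The residual spread therefore rests on few degrees of freedom, and the calls depend on single arrays. Without the 1999 arrays of 4d 10 probe sets passed, 8 of them among the 21, and without the 1999 arrays of 3d 0 passed, with 1303 at an unadjusted p under 0.05. All 21 kept their direction in both.

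*Myog*, the transcription factor that drives terminal differentiation, read 1144, 1561 and 11798 at 3d, 4d and 7d in 1999, 22764, 20647 and 19022 in P6 and 27639, 25961 and 23084 in P10. Its signal in 1999 was low at 3d and 4d and climbed at 7d, when it still lay below every P6 and P10 array, and in P6 and P10 it was slightly lower at 7d than before. The difference of the change was 3.23 ± 0.28 (log2, SE).

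The embryonic and neonatal myosin heavy chains followed the same pattern. *Myh3* read 69.6, 180 and 4217 in 1999, 18199, 18865 and 21536 in P6 and 48026, 44002 and 38288 in P10, a difference of 4.21 ± 0.35. *Myh8* read 102, 79.1 and 2233 in 1999, 2193, 2592 and 2886 in P6 and 5915, 7266 and 7867 in P10, a difference of 3.23 ± 0.27, and its 1999 array of 7d lay between the P6 arrays of 3d and 4d. *Tnnc1*, the slow and cardiac troponin C, read 1198, 1730 and 41480 in 1999, 58053, 70070 and 77062 in P6 and 92138, 133180 and 120590 in P10, a difference of 4.54 ± 0.38. Cardiac troponin T, *Tnnt2*, and the atrial and embryonic light chain *Myl4* differed by 3.00 ± 0.30 and 4.51 ± 0.49. A log2 change of at least 1 was reached by 10 of the 10 embryonic and neonatal genes in 1999 and by 0 in P6 and P10, where 3%, 2.82% and 3.15% of all probe sets did so, and 2.51%, 3.62% and 4.2% had -1 or less. All 10 lay below both other cultures in 1999 at each of 3d, 4d and 7d, with median differences of -4.64, -4.68 and -1.35 (log2), so that they were nearest at 7d.

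*Actc1*, cardiac actin, which embryonic skeletal muscle also uses, read 327, 821 and 22898 in 1999, 23400, 24836 and 29630 in P6 and 45238, 47749 and 53203 in P10 on the probe set that passed. The difference there was 4.90 ± 0.49, against 2.19 with an adjusted p of 0.0807 on the family probe set, whose probes other actins share. A second *Myl4* probe set gave 1.90.

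Adult fast genes followed. *Myh1*, the fast IIx myosin heavy chain, read 78, 256 and 14858 in 1999, 10209, 13044 and 25353 in P6 and 27822, 40960 and 48283 in P10, a difference of 4.96 ± 0.51. It was highest at 7d in P6 and P10 too, and the 1999 array of 7d lay between the 4d and 7d arrays of P6. The fast light chain *Myl1*, the fast troponin C *Tnnc2*, and *Mybph*, a myosin-binding protein, differed by 3.71 ± 0.39, 2.78 ± 0.29 and 3.54 ± 0.34. The *Tnnc2* probe set carries the f suffix of probes shared within a gene family. *Pgam2*, the muscle form of phosphoglycerate mutase, read 16.9, 26.1 and 2085 in 1999, 2438, 1713 and 3476 in P6 and 6572, 8845 and 10748 in P10, and *Cox6a2*, the muscle subunit of cytochrome oxidase, read 120, 169 and 1834 in 1999, 5375, 5332 and 7667 in P6 and 10916, 10135 and 17542 in P10. In 1999 both started near or below the offset, so the sizes depend on it. *Pgam2* differed by 3.35 ± 0.34, from 1.70 with the offset at the chip median to 6.00 with none, and *Cox6a2* by 2.27 ± 0.24, from 1.22 to 3.06.

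The remaining called genes included sarcomere and membrane proteins. *Myom1*, which crosslinks myosin at the M-band, *Synpo2l*, an actin-associated Z-disc protein, *Cavin4* and *Cav3*, which build muscle caveolae, differed by 2.66 ± 0.25, 3.18 ± 0.35, 3.06 ± 0.32 and 2.56 ± 0.25, with 3.83 ± 0.38 on the second *Cav3* probe set. *Myom1* read 40.5 and 40.6 in 1999 at 3d and 4d, below the offset, and its difference ran from 1.28 with the offset at the chip median to 4.48 with none. *Tmem182*, a muscle membrane protein, and *Erbb3*, a neuregulin receptor, differed by 3.57 ± 0.32 and 2.71 ± 0.26. *Postn*, the matrix protein periostin, read 2067, 1643 and 11712 in 1999, 3900, 3902 and 6587 in P6 and 7552, 7712 and 6819 in P10, a difference of 2.30 ± 0.25. Unlike the contractile genes named above, *Postn* at 7d was higher in 1999 than on any P6 or P10 array.

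For 1999 the change could also be taken within 1 scan session. From 4d to 7d the 1999 change was 3.85 for *Myh3*, 4.49 for *Tnnc1*, 2.83 for *Myog* and 5.32 for *Myh1*. The list medians from 4d to 7d in 1999 were 3.31, 3.08 and 2.85 for embryonic, fast and slow genes, when 3.97% of all probe sets gained at least 1 on this scale. In P6, scanned in 1 session, the medians from 4d to 7d were 0.17, 0.38 and 0.44. In P10 they were -0.09, 0.08 and 0.12, between 2 sessions or, on MG_U74Cv2, with 4d undated.

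The low values of 1999 at 3d and 4d followed higher ones. At 48h *Myl4* read 18699 in 1999, then 1509, 3114 and 54000 at 3d, 4d and 7d, and *Myl1* read 14179 and then 2007, 3175 and 49022. The median of the embryonic and neonatal contractile isoforms (log2 signal plus offset) in 1999 was 12.923 at 36h, 12.410 at 48h, 10.442 at 3d, 10.685 at 4d and 13.999 at 7d. The same list read 13.617 at 48h and 14.932 at 3d in P6, and lay between 15.705 and 15.920 from 36h on in P10. Part of the 1999 change to 7d is thus measured from arrays that lay below that culture's own arrays of 36h and 48h. Whether those late arrays hold the samples their titles give was not tested.

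**Figure D4:**
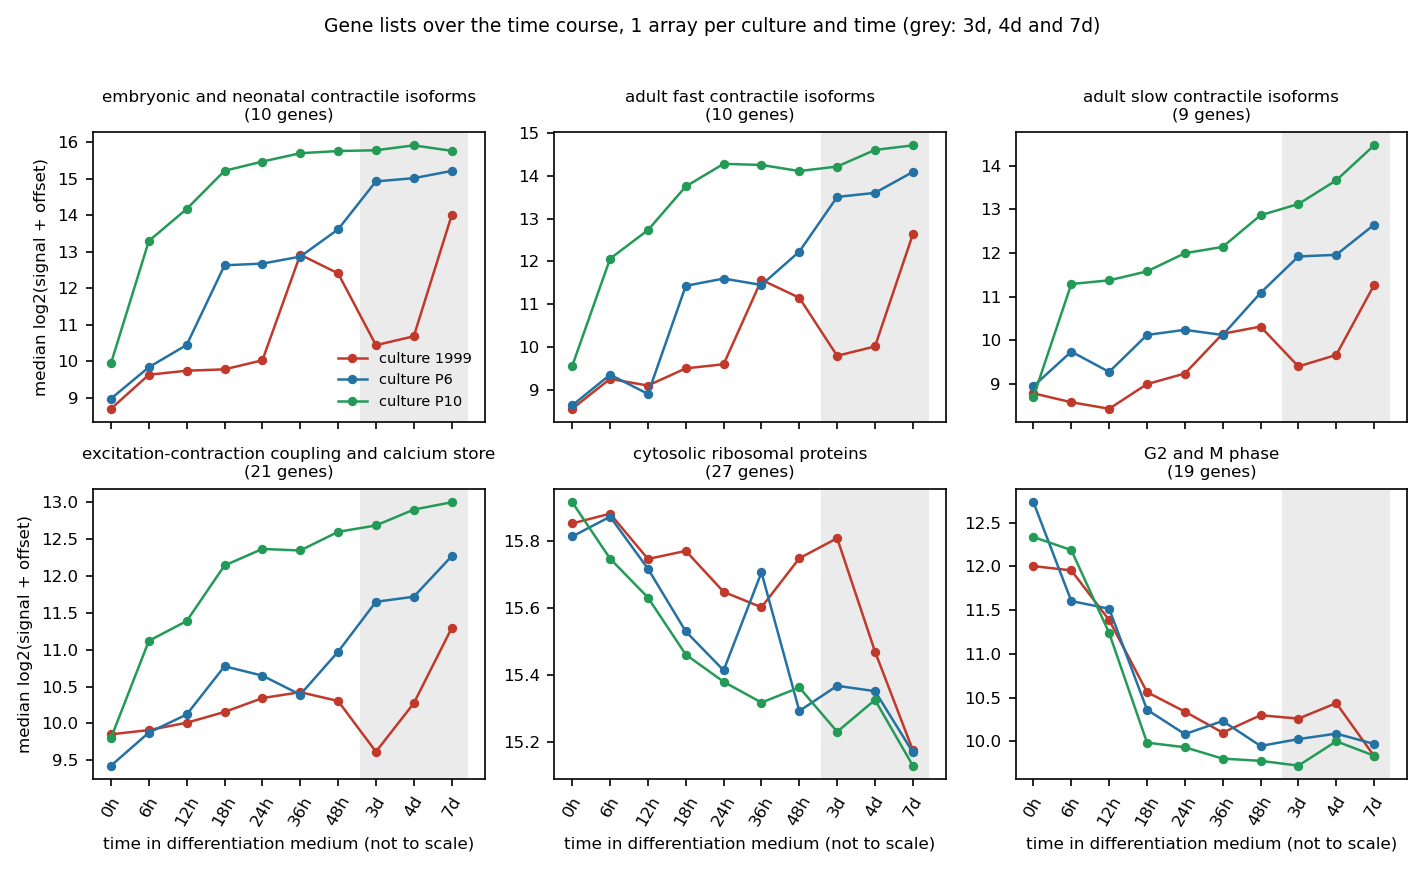
Median log2 signal of 6 gene lists at all 10 times, 1 array per culture and time, with 3d, 4d and 7d shaded. In the contractile lists the 1999 line drops from 48h to 3d and 4d and climbs to 7d below P6 and P10, while the lines of cytosolic ribosomal proteins in the 3 cultures meet at 15.131 to 15.177 at 7d.

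The promoters of 4 genes whose change was larger in 1999 and of *Casq1*, with changes from 0.96 to 1.22 in the 3 cultures, are shown because E-boxes, MEF2 sites, MCAT elements and CArG boxes are known binding sites of myogenic factors, MEF2, TEAD proteins and serum response factor. Capitals mark CAGCTG (an E-box), GGAATG (the MCAT core), the MEF2 consensus and the CArG box, each searched on both strands. Sequences run 5′ to 3′ from 250 bases before to 50 bases after the RefSeq start on GRCm38.p6.
Actc1, chr2:114052826-114053125, minus strand: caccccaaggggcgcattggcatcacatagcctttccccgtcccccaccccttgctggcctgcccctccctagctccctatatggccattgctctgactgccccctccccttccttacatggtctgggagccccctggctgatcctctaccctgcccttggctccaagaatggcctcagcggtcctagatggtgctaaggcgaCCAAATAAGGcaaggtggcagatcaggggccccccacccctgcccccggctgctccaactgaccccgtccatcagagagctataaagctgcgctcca
Tnnc1, chr14:31208062-31208361, plus strand: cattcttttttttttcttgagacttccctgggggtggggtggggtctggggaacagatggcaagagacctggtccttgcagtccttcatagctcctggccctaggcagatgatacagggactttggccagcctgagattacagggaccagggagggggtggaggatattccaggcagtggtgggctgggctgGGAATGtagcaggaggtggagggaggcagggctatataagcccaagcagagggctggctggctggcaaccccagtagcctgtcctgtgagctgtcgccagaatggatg
Pgam2, chr11:5803747-5804046, minus strand: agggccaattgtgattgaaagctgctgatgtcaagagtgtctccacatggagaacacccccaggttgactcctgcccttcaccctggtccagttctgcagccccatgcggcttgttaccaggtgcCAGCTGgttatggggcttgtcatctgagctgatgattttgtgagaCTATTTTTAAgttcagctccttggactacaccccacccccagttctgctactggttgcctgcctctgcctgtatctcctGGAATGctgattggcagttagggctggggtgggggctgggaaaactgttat
Cav3, chr6:112459255-112459554, plus strand: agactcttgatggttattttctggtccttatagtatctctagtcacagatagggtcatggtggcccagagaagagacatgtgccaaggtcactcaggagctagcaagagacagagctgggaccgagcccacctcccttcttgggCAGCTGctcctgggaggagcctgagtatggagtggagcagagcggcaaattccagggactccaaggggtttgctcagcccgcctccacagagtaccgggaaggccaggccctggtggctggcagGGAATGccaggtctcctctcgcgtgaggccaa
Casq1, chr1:172219846-172220145, minus strand: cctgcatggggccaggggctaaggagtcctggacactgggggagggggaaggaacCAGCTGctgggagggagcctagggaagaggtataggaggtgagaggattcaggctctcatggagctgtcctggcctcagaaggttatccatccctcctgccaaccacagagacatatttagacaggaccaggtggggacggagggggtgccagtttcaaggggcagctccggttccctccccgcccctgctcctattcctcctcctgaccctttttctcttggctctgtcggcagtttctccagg

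The *Actc1* window held a CArG box 47 bases before the start, and *Tnnc1* held GGAATG 58 bases before it. In *Pgam2* CAGCTG, the MEF2 consensus and GGAATG began 125, 80 and 1 bases before the start, and the *Cav3* and *Casq1* windows held CAGCTG 106 and 195 bases before it. The *Cav3* window also held GGAATG 18 bases after the start. Of the 20 genes called in the culture contrast 18 matched the table, with 21 promoters, of which 7 held CAGCTG, 7 GGAATG, 5 the MEF2 consensus and 2 a CArG box. Among all 32851 promoters of the table the shares were 16.3%, 14.7%, 3.2% and 1.6% in that order. A second, palindromic MEF2 pattern was in 1 promoter, 4.8% against 3.7% of all, and TATAAA in 9, 42.9% against 13.6%. As a share CAGCTG was in 33.3% of these promoters, in 40.0% of 10 promoters of the smallest-p higher genes and in 47.1% of 17 of the lower genes. These are matches of letters only, in motifs chosen with the called genes known, and no binding was measured. Every promoter shown held a marked motif. Those of the called genes *Myog*, *Myh3*, *Myl4*, *Tnnc2*, *Cavin4* and *Postn*, and 1 of *Tnnt2*, held no marked motif.

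Other contrasts among the late times gave no calls. Comparing single times with culture as a block, 0 probe sets passed for 7d against 4d, for 7d against 3d and for 4d against 3d, while 6.13%, 7.84% and 4.31% had an unadjusted p under 0.05 (limma). In these contrasts each side held 3 arrays per chip. The contrasts share arrays with each other and with the main comparison.

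Regulators of the myogenic program other than *Myog* did not pass in either comparison. *Mef2c*, a partner of the myogenic factors, read 226, 319 and 2166 in 1999, 3777, 3662 and 5681 in P6 and 7391, 8014 and 11035 in P10, highest at 7d in each, with an adjusted p of 0.0705 for the difference between cultures. *Myf6* read 372, 241 and 515 in 1999, 1226, 1114 and 1120 in P6 and 1901, 3153 and 5632 in P10, and among these only P6 had its highest value at 3d. *Mymk*, the fusion protein myomaker, read 3629, 6843 and 62780 in 1999, 86748, 94463 and 108880 in P6 and 149230, 158060 and 129710 in P10, with a gain in 1999 and values that differed less among times in P6 and P10. *Myf5* had a change of -0.26 ± 0.24. *Cdkn1a*, the p21 inhibitor of cell division, had 0.25 ± 0.16 and *Igf2*, a growth factor of differentiating muscle, 0.56 ± 0.48. The 16 markers of satellite cells and undifferentiated myoblasts had a median of -0.01, with 2 above in all cultures.

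Markers of other cell types were partly dim and partly bright. No array exceeded the chip median for 9 of 16 macrophage and leukocyte genes with a probe set, 6 of 10 endothelial, 5 of 11 adipocyte, 6 of 13 fibroblast, 2 of 11 smooth muscle and 2 of 9 Schwann and neural genes. Among the dim ones *Ptprc* read at most 66, *Cdh5* at most 98, *Adipoq* at most 277 and *Tcf21* at most 132. Among the bright ones *Laptm5* reached 5422, *Flt1* 3513, *Cebpa* 16243, *Sox10* 7358 and *Tubb3* 16778. Brighter still were *S100a4* at 72883, *Col1a1* at 34731 and *Col3a1* at 25206 in the fibroblast list. In the smooth muscle list *Cald1* reached 55348 and *Acta2* 51362. The summed signal of the tested macrophage genes ran from 5096 to 7451 at 3d and 4d and from 4525 to 6013 at 7d, and that of the endothelial genes from 2735 to 6192 and from 3545 to 3833. The adipocyte sums ran from 17096 to 28285 and from 17399 to 25966, and the Schwann and neural sums from 17262 to 24346 and from 17290 to 22926. The fibroblast sums ran from 80279 to 118363 and from 79854 to 96548, and the smooth muscle sums from 80959 to 111485 and from 60070 to 111654. In each of these lists the ranges of the early and late arrays overlapped, and no member passed. The part of other cells in the values above was not tested. In these bulk samples fewer cells of a type and less RNA per cell cannot be told apart.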

How the data were processed

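RNA of 9 samples was read on 3 Affymetrix chips. The deposited values are probe set intensity on a linear scale, made by the authors with MAS5 per the submitters' processing notes; its version and scaling are not given in the sources used here. Each signal was raised by an offset, the 25th percentile of its chip's table (119.8, 270.1 and 213.0 on the 3 chips), and converted to log2. Controls, 66 per chip, were dropped. Testing required a signal over the chip median (527.3, 800.4 and 612.8) on 3 or more of the 9 arrays. limma 3.58.1 in R 4.3.3 fitted 7d against 3d and 4d with culture as a block, and p values were adjusted (Benjamini-Hochberg) over the 3 chips together at 0.05. The difference between cultures was fitted with limma as a culture-by-time term. The fit of 7d against 3d and 4d was also run on simulated data, with independent noise and the same change in every culture. Changes were planted on MG_U74Av2 only, so recovery on the other chips was not measured. The fit recovered 71% of 100 log2 changes of size 1 and 94% of 100 of size 2. There were 9 false calls in 20389 probe sets. The culture-by-time fit was not simulated.

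The numbers of arrays limit the precision. Deviations of arrays of the same culture from the time means had median correlations of 0.643, 0.467 and 0.24 on the 3 chips. Between cultures the medians were -0.406, -0.282 and -0.166, and deviations from a mean of 3 cultures tend to be negative there. The ranges overlapped on MG_U74Bv2 and MG_U74Cv2, with same-culture values from 0.227 and 0.084 and others up to 0.274 and 0.128. On these chips arrays of 1 culture name were thus more alike in the median only. On MG_U74Av2 the ranges did not overlap, with same-culture values from 0.389 and others up to 0.275. The named genes were, where fewer than 10 passed in a direction, the 10 with the smallest p in that direction, a panel of muscle genes, up to 4 members of each list in each direction by p, and the 10 with the smallest p in the culture contrast. The other genes that passed there and the dim and bright markers of other cell types were named after their values were seen. The members and lists were chosen with earlier results of these data known. Gene symbols came from the chip annotation, and promoters from RefSeq for GRCm38.p6. Alternatives changed the block, offset, filter, normalization, variance model, session term and the arrays included.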

Additional observations from a re-analysis of the deposited data

Results flagged for a closer look

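The change to 7d differed between cultures for 21 probe sets by the culture-by-time test (limma, adjusted p of 0.0422 each), always larger in 1999 than in P6 and P10. The differences (log2) were 4.21 for *Myh3*, 3.23 for *Myh8*, 4.54 for *Tnnc1*, 3.23 for *Myog*, 3.57 for *Tmem182*, 2.66 for *Myom1* and 3.54 for *Mybph*. They were 2.71 for *Erbb3*, 2.56 and 3.83 for the *Cav3* probe sets, 4.90 for *Actc1*, 3.00 for *Tnnt2*, 3.35 for *Pgam2*, 3.06 for *Cavin4* and 4.96 for *Myh1*. They were 2.78 for *Tnnc2*, 3.71 for *Myl1*, 2.27 for *Cox6a2*, 3.18 for *Synpo2l*, 2.30 for *Postn* and 4.51 for *Myl4*. Several sizes depend on the offset, because 1999 started near or below it: from an offset at the chip median to none, *Pgam2* ran from 1.70 to 6.00, *Myom1* from 1.28 to 4.48, *Myh8* from 1.92 to 4.37 and *Cox6a2* from 1.22 to 3.06. In 1999 these probe sets lay below both other cultures at 3d and 4d in 21 of 21 cases, with median differences of -4.92 and -4.78, and at 7d in 20 of 21, with -1.23. The 1999 arrays of 4d and 7d came from a separate scanner type, and the part of this in the difference was not tested.

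*Tirap* read 601 in P10 at 4d, far below the other arrays of 3d and 4d, which lay between 923 and 1143. It was the 1 value set apart in 71 groups examined, where about 1 in 20 groups is set apart by chance.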

How the results depend on the processing

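The 2 calls of 7d against 3d and 4d, 1 higher and 1 lower, were not stable. No replicate block, 3 time levels, all 30 arrays, averaging 3d and 4d, no filter, a mean filter, quantile normalization, a trended robust variance, and leaving out the 3d, the 4d, the 1999 4d or (chosen after seeing the data) the 1999 3d arrays each gave 0 calls, with 0 higher and 0 lower. The mean filter had removed both original calls before the test, so its count says nothing about them. Without 1 culture the counts were 0 to 0. No offset gave 1 lower, the original call. An offset at the chip median gave 1 higher, *Myl2*, and a scan session block 1 lower; neither was an original call, and both gave 0 the other way. At an unadjusted p under 0.05 the pairing by culture mattered, with 606 probe sets without the block against 1739 with it, and the settings with 0 calls gave 606 to 2561. The 21 calls of the culture contrast became 19 with no offset (8 of the 21 kept), 22 with quantile normalization (20 kept), 35 with an offset at the chip median (18 kept), 86 with a trended variance (21 kept), 0 with no filter (2015 unadjusted), 10 without the 1999 4d arrays (8 kept) and 0 without the 1999 3d arrays; setting P6 or P10 against the others gave 0 each (1208 and 1925 unadjusted). With an offset at the chip median 7d against 3d gave 2. Reversed values concerned genes that did not pass in that comparison. Without 1 culture, log2 changes ran from -0.13 to 0.01 for *Myod1*, from -0.20 to 1.42 for *Myog*, from -0.02 to 2.20 for *Myh3*, from -0.02 to 2.03 for *Acta1*, from -0.20 to 0.09 for *Ckm*, from -0.49 to 0.36 for *Chrne*, from -0.08 to 0.19 for *Itm2a*, from -0.32 to 0.25 for *Mki67*, from -0.39 to 1.04 for *Igf2*, from -0.22 to 0.25 for *Col1a1* and from -0.08 to 0.26 for *Col3a1*. Other reversed values were 0.14 for *Myf5*, -0.45 for *Mki67* and 0.29 for *Col1a1* with the session block, 0.01 for *Ckm* and -0.15 for *Mki67* without the 3d arrays, 0.01 for *Ckm* and 0.01 for *Chrne* without the 1999 3d arrays, -0.11 for *Itm2a* and 0.02 for *Col1a1* without the 4d arrays, -0.09 for *Itm2a* without the 1999 4d arrays, 0.01 for *Col1a1* with quantile normalization. Causes were not tested.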
